A study of Gossypium hirsutum with 3 samples.

Results

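The 8 genes described here split sucrose, carry its products across membranes or build starch: 3 invertases, 1 gene of the invertase inhibitor family, 2 hexose transporters, a starch branching enzyme and a granule-bound starch synthase. They were taken by name from 11143 genes on a cotton oligonucleotide array, as every gene spot bearing the name of a listed contig (several cDNA reads assembled) or singleton (a lone read). Their ratios on these same arrays were known when they were chosen, so the ratios are a description, with no p for any of them.

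RNA from fiber initials and RNA from ovules of field grown upland cotton (Gossypium hirsutum), both at 1 dpa (days post anthesis), were compared on 3 arrays, each with both RNAs in different dyes. By the methods of the study, fiber initial RNA was washed from ovules of many pooled bolls that had been frozen and vortexed with glass beads. The ovules of the other group were intact and still held their own fiber initials. The RNA was polyribosomal (bound to ribosomes) by the methods, whereas the source names of the samples call it total RNA, and harvests were made on different days. No treatment of the plants is named, flowers came from the lines DES119 and ST4793R, and the sources used here do not say which line is on which array.

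Every ratio below is the signal of the RNA coded SP2 over that of the RNA coded SP1, on the log2 scale. In green the spots carry the codes SP2A, SP1E and SP2C on arrays 1, 2 and 3, and in red SP1A, SP2A and SP1F. By the labels green was fiber, fiber and ovule on those arrays, so SP2 is fiber by the label of array 1 and ovule by the labels of arrays 2 and 3. The labels thus do not settle which tissue SP2 was, and genes known from young fiber are given for it further on. If SP2 was fiber on every array, a positive value reads as higher in fiber initials. If it was ovule on every array, each sign below turns with its size unchanged. With each array turned by its own label the sizes change too, as given at the end. Turned by the codes, array 1 correlated at 0.58 with array 2 and at 0.52 with array 3, and arrays 2 and 3 at 0.81. These are correlations over genes, and genes are no replicates. The code SP2A stands on 2 arrays, and n = 3 counts arrays.

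Invertases cleave sucrose into glucose and fructose. The soluble acid forms work mostly in the vacuole, where the released hexoses add to the osmotic pressure behind cell expansion, and the alkaline or neutral forms work outside it. Hexose transporters move glucose and fructose across membranes, while starch synthases and branching enzymes store glucose as starch in plastids. Cotton fibers are single cells of the ovule epidermis that elongate under turgor and lay down cellulose made from sucrose-derived sugar.

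One soluble acid invertase and both hexose transporters were higher in the SP2 RNA on all 3 arrays, by 3.59-fold, 2.54-fold and 2.00-fold on average. Both starch genes were lower on all 3 arrays, by 5.88-fold for the branching enzyme and 4.50-fold for the granule-bound synthase. The other acid invertase, Contig23, and the neutral invertase were lower on each array by unequal amounts, and the inhibitor family gene had no steady sign. The invertases thus lay on both sides of zero, and the hexose transporters and the starch genes on opposite sides. Fewer cells of a type and less RNA per cell cannot be told apart in such bulk RNA.

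**Figure D1:**
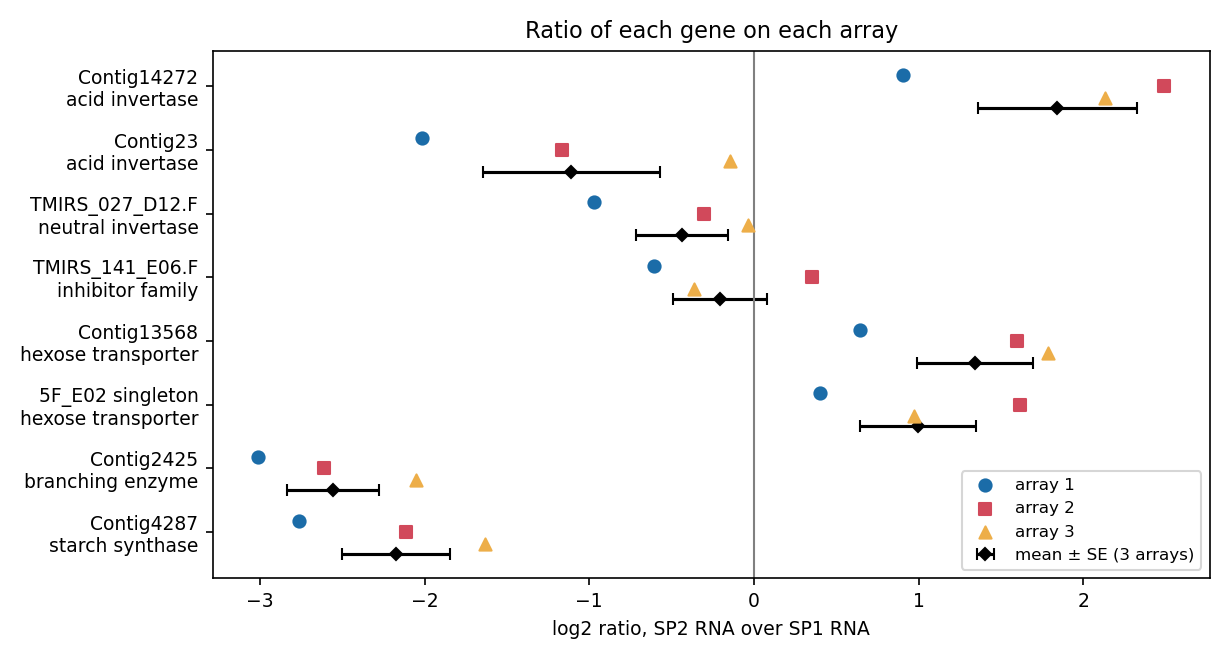
Log2 ratio of SP2 over SP1 RNA of the 8 genes (rows), with a symbol for each of the 3 arrays and the mean with its SE over the arrays. The acid invertase Contig14272 and the 2 hexose transporters lay above 0 and the 2 starch genes below -1.6 on every array, and array 1 gave the lowest value of each gene.

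Contig14272, a soluble acid invertase described by its likeness to the enzyme of sweet potato (Ipomoea batatas), had log2 ratios of 0.90, 2.49 and 2.13 on arrays 1, 2 and 3. The mean was 1.84 ± 0.48 (SE, n = 3), the third highest of the 11079 genes tested, or the third lowest with the signs turned. Its normalised signal in the SP2 RNA was 2333, 5835 and 7047 on arrays 1, 2 and 3, and in the SP1 RNA it was 1247, 1037 and 1608. The lowest SP2 signal exceeded the highest SP1 signal, and array 1 had the smallest gap and the lowest SP2 signal. The 4 probes of the gene each had 1 sign on all arrays, with means between 1.65 and 2.13. On array 1 they spread from 0.25 to 1.77.

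Contig23, also a soluble acid invertase and most like a bean (Phaseolus) sequence, ran the other way. Its ratios were -2.01, -1.17 and -0.15 on arrays 1, 2 and 3, a mean of -1.11 ± 0.54 (SE, n = 3), or 2.16-fold lower in the SP2 RNA. The SP2 signals of 297, 266 and 366.3 spanned 1.38-fold between arrays. The SP1 signals of 1199, 597.4 and 405.5 spanned 2.96-fold, and on array 3 the gene was nearly level between the RNAs. The mean was -0.66 without array 1 and -1.59 without array 3. Of its 4 probes, 3 had 1 sign on all arrays, and the probe means lay between -1.29 and -0.75.

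The acid invertases were set against each other within each array, where both were read from the same pair of RNAs. The log2 ratio of Contig14272 exceeded that of Contig23 by 2.92, 3.66 and 2.28 on arrays 1, 2 and 3, with a mean of 2.95 ± 0.40 (SE of the 3 differences). The sign of that difference was the same on every array, while the size of each ratio was not.

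TMIRS_027_D12.F, an alkaline or neutral invertase most like an Arabidopsis sequence, had ratios of -0.97, -0.30 and -0.04 on arrays 1, 2 and 3. The mean was -0.44 ± 0.28 (SE, n = 3), and -0.17 without array 1. Its signals were 158.5, 176.5 and 143.9 in the SP2 RNA and 310.9, 217.9 and 147.7 in the SP1 RNA. The RNAs overlapped in range, and as for Contig23 the SP1 signal was highest on array 1. Only 2 of its 4 probes had 1 sign on all arrays.

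TMIRS_141_E06.F belongs to the family of invertase and pectin methylesterase inhibitors, small proteins that block one enzyme or the other, and the sequence family alone does not say which. Its ratios of -0.60, 0.35 and -0.37 on arrays 1, 2 and 3 changed sign, with a mean of -0.21 ± 0.29 (SE, n = 3). The mean was -0.01 without array 1 and -0.49 without array 2, and none of its 3 probes had 1 sign on all arrays. The SP2 signals (710.3, 744.8 and 830.1) lay within the range of the SP1 signals (1080, 584.6 and 1070).

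**Figure D2:**
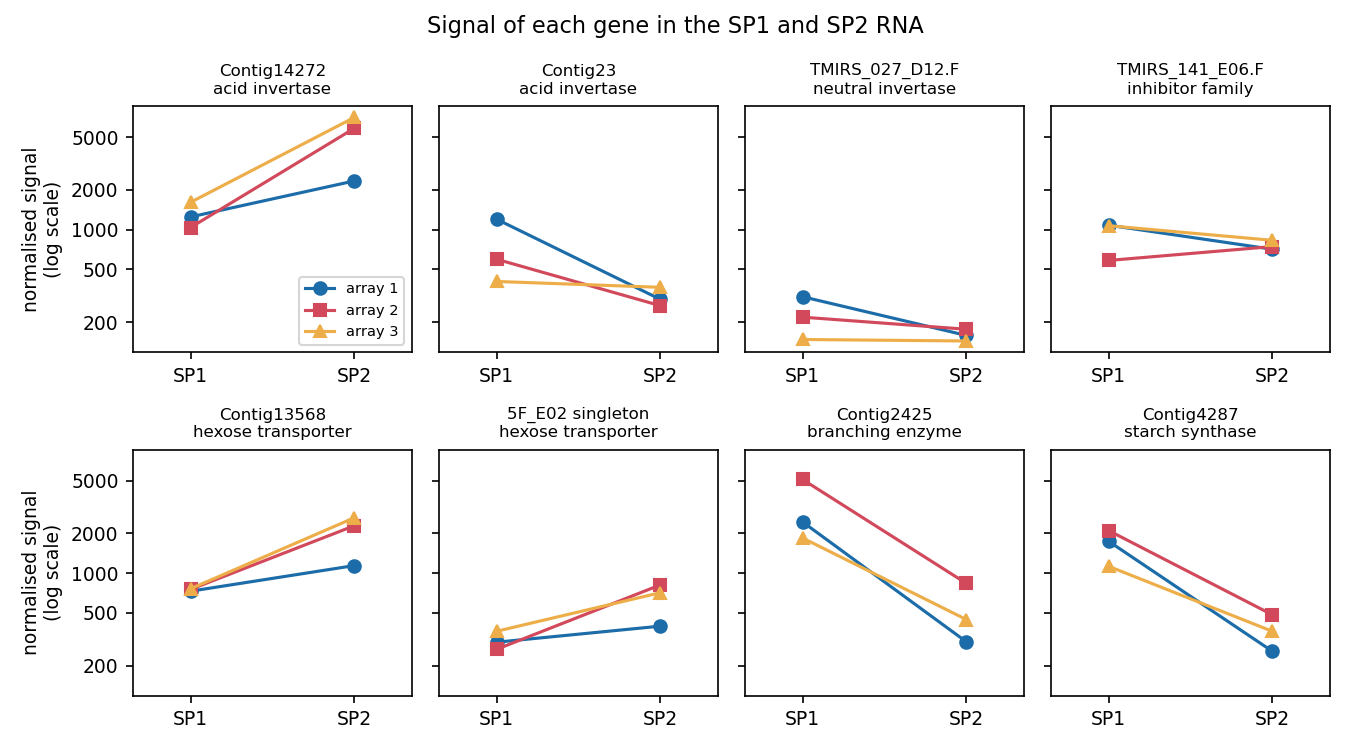
Normalised signal (log scale) of each of the 8 genes in the SP1 and the SP2 RNA, with a line per array. Contig14272 lay between 1037 and 1608 in SP1 and between 2333 and 7047 in SP2, and Contig2425 between 1844 and 5105 in SP1 and between 302.5 and 836.2 in SP2.

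The hexose transporters resembled each other. Contig13568, most like hexose transporter 6 of grape (Vitis), had ratios of 0.64, 1.60 and 1.78 on arrays 1, 2 and 3, with a mean of 1.34 ± 0.35 (SE, n = 3). Its SP1 signals were 730, 753 and 761.1, and its SP2 signals were 1140, 2281 and 2622. The SP1 level thus varied by 1.04-fold between arrays, the SP2 level by 2.30-fold, and the groups did not overlap. Its 4 probes had 1 sign on all arrays, with means between 1.21 and 1.40.

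The singleton 5F_01-01-02R_E02_InvR_25Mar04_008.ab1, a putative hexose transporter, had ratios of 0.40, 1.62 and 0.97 on arrays 1, 2 and 3, with a mean of 1.00 ± 0.35 (SE, n = 3). Its signals were 397.3, 814.6 and 711.5 in the SP2 RNA and 300.4, 265.4 and 363.3 in the SP1 RNA. The RNAs did not overlap, although 397.3 on array 1 was close to 363.3 on array 3. The mean without array 2 was 0.69. Its 3 probes had 1 sign on all arrays and means between 0.92 and 1.07. Within arrays, the ratio of Contig13568 minus that of the singleton was 0.24, -0.02 and 0.81, with a mean of 0.35 ± 0.25 (SE of the 3 differences). Their order was not the same on every array.

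Contig2425, a starch branching enzyme I most like a wheat sequence, adds the branches of amylopectin. Its ratios were -3.01, -2.61 and -2.05 on arrays 1, 2 and 3, with a mean of -2.56 ± 0.28 (SE, n = 3), the 27th lowest of all genes tested, or the 27th highest with the signs turned. Signals in the SP2 RNA were 302.5, 836.2 and 445.5, against 2437, 5105 and 1844 in the SP1 RNA. The groups did not overlap, and array 2 had the highest signal in both RNAs, with a span between arrays of 2.76-fold in SP2 and 2.77-fold in SP1. All 4 probes had 1 sign, with means from -3.25 to -1.75.

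Contig4287, a granule-bound starch synthase Ib most like a bean (Phaseolus) sequence, makes amylose, the unbranched part of starch. Its ratios were -2.76, -2.12 and -1.63 on arrays 1, 2 and 3, with a mean of -2.17 ± 0.33 (SE, n = 3). Signals were 256.3, 484 and 362.8 in the SP2 RNA and 1741, 2098 and 1126 in the SP1 RNA. The groups did not overlap. Within arrays, the ratio of Contig2425 was below that of Contig4287 by 0.25, 0.49 and 0.42 on the log2 scale, a mean difference of -0.39 ± 0.07 (SE of the 3 differences). That SE covers the arrays and not the probes. The probe means of Contig4287 ran from -3.16 to -0.99 and overlapped those of Contig2425, from -3.25 to -1.75. The order of the 2 genes thus depends on which probes are averaged. Both starch genes had their lowest ratio on array 1 and their highest on array 3.

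The probes of a gene did not always give the same size. For Contig4287 the probe means were -1.44, -3.16, -3.09 and -0.99 on the log2 scale, and the SD among probes was 1.12 against 0.57 among arrays. The highest spot signals of the shallow probes were 671 and 683, and those of the deep probes were 7787 and 8470. With plain background subtraction the means were -1.57, -3.22, -3.15 and -1.08, so the split kept its size. Contig2425 had an SD of 0.62 among probes and 0.48 among arrays. Its probe means of -1.75, -2.59, -2.63 and -3.25 came with highest spot signals of 627, 3219, 7110 and 18769. The other 6 genes had SDs among probes between 0.07 and 0.25. Over 9942 genes with at least 3 probes kept, the median SD was 0.14 among probes and 0.24 among arrays. Whether probe sequence or signal level sets the size was not tested. The 4.50-fold difference of Contig4287 is an average over probes that differ.

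**Figure D3:**
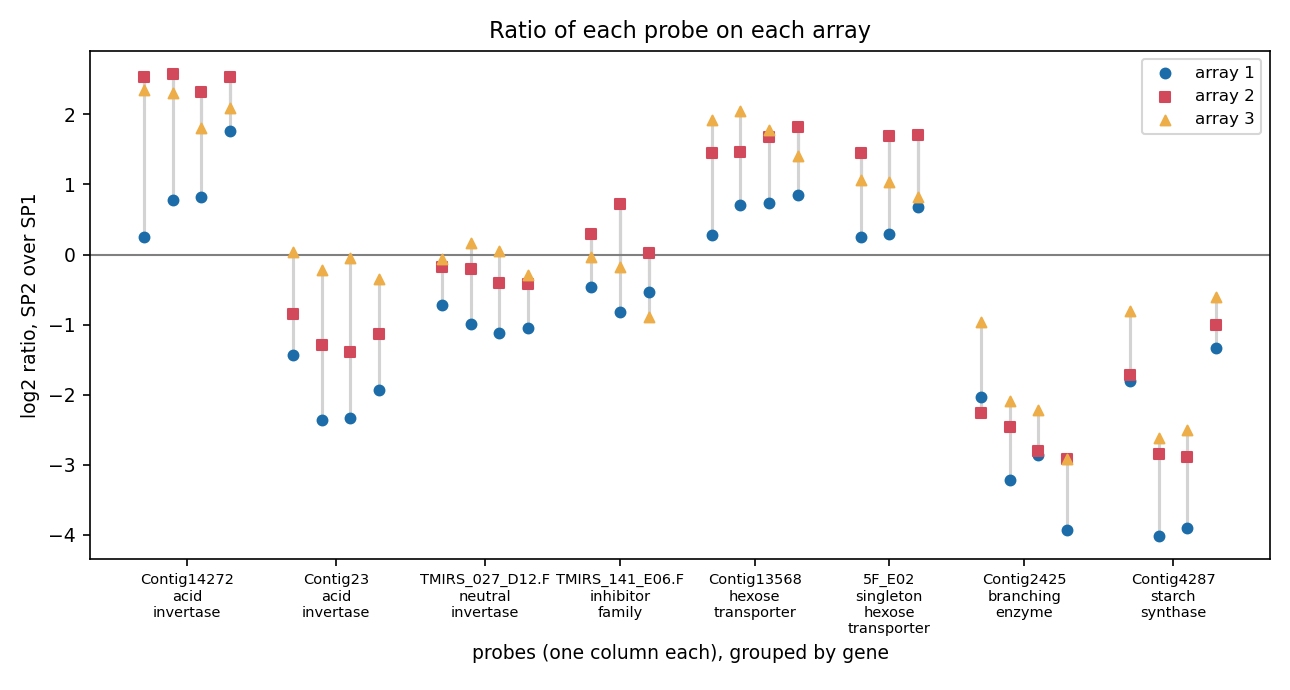
Log2 ratio of SP2 over SP1 RNA of each of the 30 probes of the 8 genes, with a symbol for each array and a grey line over their range. The probe means of Contig4287 fell into a pair at -3.16 and -3.09 and a pair at -1.44 and -0.99, whereas those of Contig13568 lay between 1.21 and 1.40.

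All 30 probes of the 8 genes were above background in both RNAs on all 3 arrays, 24 had 1 sign throughout, and the highest spot signal was 18769, below the 65000 taken as saturation. All 8 genes passed the filter on dim probes. The fit across all genes gave counts that are printed here as a description only, and 5 of the 8 had an adjusted p under 0.05 (limma, Benjamini-Hochberg), where 12.3% of all genes did. Of these 3 were higher (3.95% of all genes) and 2 lower (8.31%), and Contig23, TMIRS_027_D12.F and TMIRS_141_E06.F were not among them. Contig23 was among them without array 2, without array 3 and with arrays 1 and 2, which share the code SP2A, averaged, and the singleton transporter was not without array 2. In each of those fits limma gave all 8 genes the same SE, so a gene's own spread between arrays did not count. Contig23 was also among them with plain background subtraction and with probes above background in both RNAs on all arrays. There the SE differed between genes and was 0.31 for Contig23. In 7 of the 8 the sign was the same on all arrays, against 44.0% of all genes. At the threshold of the study, 2-fold with an unadjusted p of up to 0.05, 2 were higher (1.73% of all genes) and 3 lower (4.73%), with Contig23 added and the singleton transporter left out. The genes were chosen on this contrast, so nothing is read from these counts. The median ratio of the 8 genes was -0.32 and that of all genes tested was 0.04, with quartiles of -0.19 and 0.16.

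Array 1 stood apart among the 3. It gave the lowest ratio of all 8 genes, of 26 of 38 related genes described below (68.4%) and of 4736 of 11079 genes (42.7%). Over all genes it was the highest about as often, in 4664, and among the 1359 genes past the limma threshold it was the lowest in 65.8%. The negative control spots of array 1 had a green SD of 102, compared with 5.6 on array 2 and 4.77 on array 3. Without array 1 the means were 2.31 for Contig14272, 1.69 for Contig13568, 1.29 for the singleton transporter, -2.33 for Contig2425 and -1.87 for Contig4287, all with the sign they had on 3 arrays. The RNA coded SP2A, which stands on arrays 1 and 2, gave signals on array 2 that were 2.5-fold those on array 1 for Contig14272, 2-fold for Contig13568, 2.05-fold for the singleton and 2.76-fold for Contig2425. For Contig23 the same factor was 0.896, and over all genes the quartiles were 0.8 and 1.25. SP2A was read in green on array 1 and in red on array 2, so these factors compare dyes as well as arrays. The SP1 signal of Contig2425, from RNAs of other codes, also rose, from 2437 on array 1 to 5105 on array 2. Whether the code marks 1 extract or 1 harvest is not given in the sources used here, and its part in these differences was not tested.

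The tissue labels were read against defining genes. Of 5 genes known from young fiber, GhFDH (1.17) and the MYB109 gene GhAJ549758 (1.29) were higher in the SP2 RNA by the limma test, and the MYB2 gene GhAF034130 (0.60), GhRDL (0.37) and GhACY (0.96) did not pass. All 5 means were above 0 in the SP2 RNA, and GhACY alone was negative on an array (-0.73 on array 1). For GhFDH, GhACY, MYB109 and MYB2 the study, on these arrays, reports more RNA in 1 dpa fiber than in ovules. By that report these genes place SP2 on the fiber side, although only GhFDH and MYB109 passed here. All 6 histone genes, markers of dividing cells, were lower, between -2.77 and -1.56. Of 4 flavonoid genes of the seed coat, the chalcone synthase Contig5884 (-1.77) and the hydroxylase TMIRS_054_C08.F (-1.44) were lower, while TMIRS_041_G06.F (-0.27) and GhBM356399 (0.14) did not pass. Without array 1 GhACY passed at 1.81, and GhAJ549758 did not at a mean of 1.5, above its mean on 3 arrays. GhFDH did not pass without array 2 (0.83). The part of these cell types in the ratios of the sugar and starch genes was not tested.

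Other genes of sugar transport, sugar use and glucans were drawn from the study's own table, made in part on these samples, so their directions are not independent evidence. Of 38 measured, 13 were higher in the SP2 RNA, 8 were lower and 17 did not pass the limma test at an adjusted p of 0.05. Over all genes tested, 3.95% were higher and 8.31% lower. By the study, its table holds genes that varied more than 2-fold, so nothing is read from the counts of this list or its groups. Each SE given for these genes is limma's, which is drawn toward that of all genes. Their median ratio was 0.49, and without array 1 the counts were 18 higher and 7 lower. Each group held mean ratios on both sides of zero, though the lowest in sugar transport was only -0.04, and each held genes that did not pass.

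**Figure D4:**
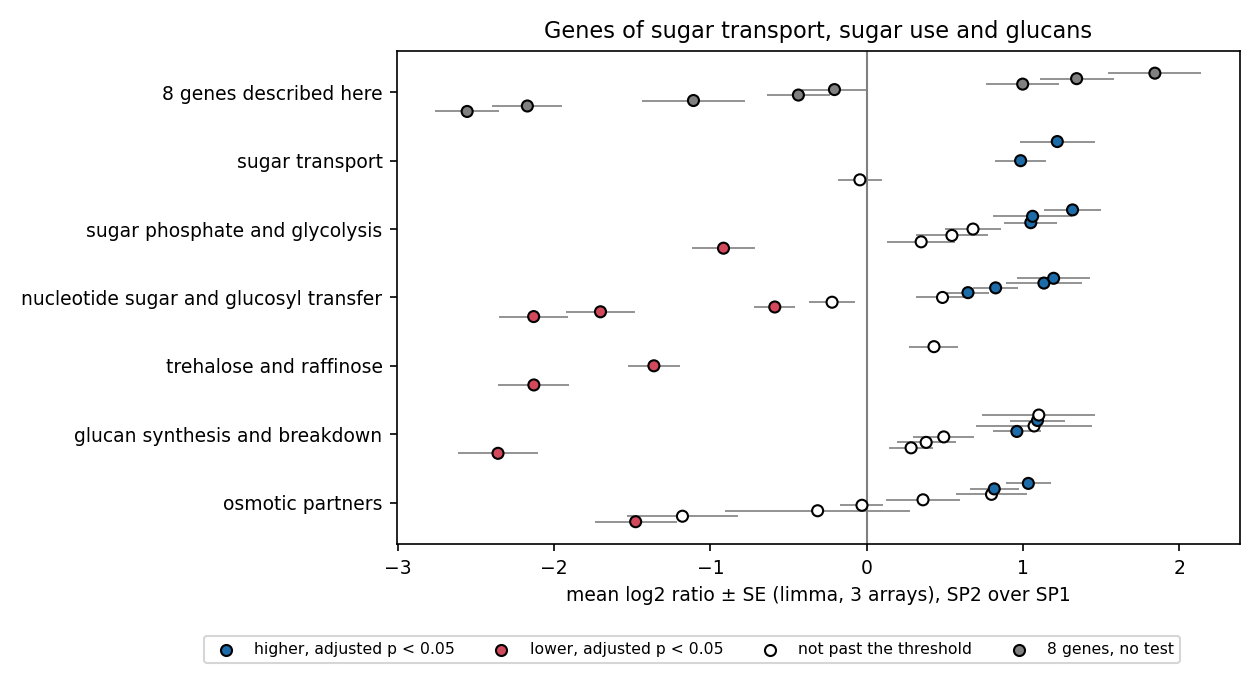
Mean log2 ratio of SP2 over SP1 RNA with limma's SE (3 arrays) for the 8 genes and for 38 related genes in 6 groups, coloured by the limma call for the related genes only. Sugar transport held 2 genes that were higher and none that was lower, and trehalose and raffinose held 2 that were lower and none that was higher.

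Among 3 other transport genes 2 were higher and none was lower. Contig14295, a nucleotide-sugar transporter, which carries activated sugars into the Golgi, had the highest ratio at 1.22 ± 0.24 (SE, n = 3, limma adjusted p = 0.0241). The sugar transporter Contig2352 had the lowest at -0.04 ± 0.14 (adjusted p = 0.901), so that not every annotated sugar carrier followed the 2 hexose transporters. Its sign turned without array 1 and with the deposited ratios.

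Of 7 genes of sugar phosphates and glycolysis 3 were higher and 1 was lower. The pyruvate kinase Contig97, which carries out the last step of glycolysis, had a ratio of 1.32 ± 0.18 (SE, n = 3, limma adjusted p = 0.00851), and all 3 that were higher were described as pyruvate kinases. Contig14996, a phosphofructokinase that uses pyrophosphate, was lower at -0.92 ± 0.20 (adjusted p = 0.0339). Without array 1 it was at -0.68 and no longer passed.

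Of 9 genes of nucleotide sugars and glucosyl transfer 4 were higher and 3 were lower. The glucosyltransferases Contig14777 and Contig5112 marked the ends, at 1.19 ± 0.23 (limma adjusted p = 0.0239) and -2.13 ± 0.22 (limma adjusted p = 0.00361). Such enzymes move a sugar from a nucleotide to another molecule, and the descriptions do not name the acceptor of either.

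Of 3 genes of trehalose and raffinose synthesis 2 were lower and none was higher. The raffinose synthase or seed imbibition protein gene Contig3433 was at -2.13 ± 0.23 (SE, n = 3, limma adjusted p = 0.00375), near Contig4287 in its ratio. Another raffinose synthase gene, Contig4765, was at 0.43 ± 0.16 (adjusted p = 0.145). Raffinose, like starch, is a storage form of carbon.

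Of 8 genes of glucan synthesis and breakdown 2 were higher and 1 was lower. The cellulose synthase Contig15578 was at -2.36 ± 0.26 (SE, n = 3, limma adjusted p = 0.00403), with a ratio between those of the 2 starch genes. The highest ratio, 1.10 ± 0.36 for the endoglucanase TMIRS_172_H09.F, did not pass (adjusted p = 0.111) and rested on arrays 2 and 3, with 2.00 and 1.36 against -0.05 on array 1. Without array 1 it was at 1.68 and passed.

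Of 8 water channels and proton pumps, which act with hexoses in building turgor, 2 were higher and 1 was lower. The aquaporin Contig16380 was at 1.03 ± 0.15 (SE, n = 3, limma adjusted p = 0.00876). The tonoplast aquaporin Contig6612 was at -1.48 ± 0.26 (adjusted p = 0.0177), below zero on all arrays, the other side from the acid invertase Contig14272. Without array 1 it was at -1.30 and did not pass.

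The genes most like Contig14272 and Contig2425 over the 3 arrays were looked for by Euclidean distance between log2 ratios. Only 1012 others, those listed in the study's own table, were candidates, out of 11079 genes tested. For Contig14272 they were Contig3452, described as protease inhibitor-like (distance 0.43), the uclacyanin Contig279 (0.48) and Contig304, described as an RNA-binding protein (0.50). Their means were 1.63, 1.63 and 1.66. For Contig2425 they were Contig5691, described as MYST1 (0.17), the cytochrome P450 singleton R3F_26R_C08_InvR_14Sep04_060.ab1 (0.22) and Contig659, a protein phosphatase (0.25). Their means were -2.62, -2.54 and -2.62.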

How the data were processed

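The authors deposited scanner files with the mean intensity per spot and around it, in both dyes, read with Agilent Feature Extraction and left uncorrected for background and dye. They also hold a deposited flag of another kind (0 or 1) for green spots well above background. The authors' value table holds log2 ratios of red over green after background subtraction, matched from the scanner files at 42034 of 42034 spots within 1e-08, with medians of -0.00901, 0.223 and -0.537 on arrays 1, 2 and 3. Those medians show no centring, and the dye swap was not undone.

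Of 44290 spots, 2256 were controls. Background was corrected with normexp (offset 50) and ratios were normalised by loess within arrays with limma 3.58.1 in R 4.3.3. Spots of a probe and then probes of a gene were averaged, and 38716 of 40372 probes were kept, those above background in either RNA on at least 2 arrays (in red, 2.6 robust SD above the negative controls). Signals for each RNA were scaled between arrays on their mean intensity (Aquantile). Each array's ratio was turned by the codes on its spots, and the 3 ratios were tested against 0 with lmFit and eBayes over 11079 genes, with Benjamini-Hochberg adjustment. The methods of the study used an analysis of variance that included 10 dpa fiber, which was not analysed here, and a threshold of 2-fold with p up to 0.05. The scripts were tested on simulated data. The SE of the 8 genes is the SD of the 3 array values over the root of their number, and that of other genes is limma's moderated SE. The number of arrays limits the precision.

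The 8 genes and all lists were chosen with earlier results of these data known. Named were the 8 genes, the gene with the highest and the gene with the lowest ratio in each of 6 groups of related genes, the 3 nearest genes in the study's table for each of Contig14272 and Contig2425, and the markers. Gene descriptions were those the study tabulated. None of the array's gene names was found among the locus tags, symbols or synonyms of the reference gene table (0 matches), so no position is given, and no probe sequence was used here. Figures were drawn with matplotlib 3.10.9.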

Additional observations from a re-analysis of the deposited data

How the results depend on the processing

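With the arrays turned by the labels (fiber over ovule), 5 genes changed sign: Contig14272 had a mean log2 ratio of -1.24, Contig13568 -0.91, the singleton transporter 5F_01-01-02R_E02_InvR_25Mar04_008.ab1 -0.73, Contig2425 0.55 and Contig4287 0.33. Turned by the codes, 7 of the 8 genes kept their sign in 11 other settings, and TMIRS_141_E06.F kept it in 10, and was at 0.058 with the deposited ratios. The counts of the 8 genes are again a description only, since the genes were chosen on this contrast. Of the 8 genes, 5 passed the threshold at first, 3 with the deposited ratios, 2 with median centring, 0 by the labels (0 at an unadjusted p under 0.05) and 0 with an ordinary test without limma's moderation (2 unadjusted). It was 6, with Contig23 added, with arrays 1 and 2 averaged, with a dye term, with plain background subtraction and with probes above background in both RNAs on all arrays. Leaving out an array gave 5 to 6: without array 2 Contig23 came in and the singleton fell out, and without array 3 Contig23 came in. Without array 2, without array 3, with arrays 1 and 2 averaged and with a dye term, limma gave all 8 genes the same SE. It was 0.30, 0.29, 0.19 and 0.26 in that order. Passing there followed the size of the ratio alone, not the spread between arrays. The singleton was also out with no filter on dim probes, with the median of the probes, with the deposited ratios (Contig13568 too) and with median centring (Contig13568 and Contig14272 too). Of the 38 related genes 21 passed, 4 with the deposited ratios (3 lower), 5 with median centring (4 lower), 0 by the labels (3 unadjusted) and 0 with the ordinary test (15 unadjusted), but 29 with arrays 1 and 2 averaged (20 higher), 24 with a dye term and 19 to 25 without an array.

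Over all genes, 1359 passed (67.8% lower), 246 with the deposited ratios, 330 with median centring, 0 by the labels (537 unadjusted), 2251 (57.3% lower) with arrays 1 and 2 averaged, 2 with the ordinary test and 716 at the study's threshold. Leaving out an array gave 989 (without array 2) to 1997 (without array 1, 43.9% lower). The counts with arrays 1 and 2 averaged and without array 2 came from fits with the shared SE given above. The median of all genes was 0.25 with the deposited ratios against 0.04. The cause of these changes was not tested. Each ratio pairs both RNAs within 1 array, so no further block was fitted.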
